A study of Mus musculus with 6 samples.

Results

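Imprinted genes are transcribed mainly from the copy inherited from 1 parent. The difference between the copies is laid down as DNA methylation at imprinting control regions in egg or sperm and is carried through the divisions of body cells. Many of these genes lie in clusters in which a single control region governs several genes and a long noncoding RNA, and many act in the growth of the embryo and placenta. Here 40 such genes were followed among the 27179 genes of an RNA-seq experiment on immortalized mouse embryonic fibroblasts (MEFs). They were taken by symbol from a fixed list, chosen with earlier results of these data known, and kept whether or not they had counts. By general knowledge 22 are expressed from the paternal copy, 15 from the maternal copy, and 3 (Grb10, Ube3a and Gnas) from a copy that depends on the tissue. The reads were counted per gene, so the values are total levels and do not tell which parental copy was read.

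All 3 lines are labelled C57BL/6, lack Per1 and Per2, which encode clock repressors, and were grown in DMEM with fetal bovine serum. Cry/Per_KO cells lack Cry1 and Cry2 as well, Per/Nr1d_KO cells lack Nr1d1 and Nr1d2, and Cry/Per/Nr1d_KO cells lack all 6 genes. The Cry/Per/Nr1d_KO line was 1 clone picked after lentiviral CRISPR editing of the Cry/Per_KO line, and Per/Nr1d_KO cells are a separate line, so genotype, clone and origin of a line cannot be told apart. Each line gave 2 libraries from separate RNA preparations, and p-values measure the spread between those. By the labels, the comparisons ask which genes differ where NR1D or CRY proteins are kept. The names of the deposited counts disagree with some of these labels, as set out next.

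For 2 pairs of libraries the genotype label and the name of the deposited counts disagree. The pair labelled Cry/Per/Nr1d_KO was deposited as CP_KO, and the pair labelled Cry/Per_KO as CPN_KO. Arntl and Cry1, genes that NR1D proteins repress, go against those labels and with the deposited names. Arntl had 1192 and 1171 normalized counts in the pair labelled Cry/Per/Nr1d_KO and 2176 and 2208 in the pair labelled Cry/Per_KO, and Cry1 had 1698 and 1724 against 5323 and 5478. All 7 clock genes used for this check (Cry1, Cry2, Per1, Per2, Nr1d1, Nr1d2 and Arntl) were higher in both libraries labelled Cry/Per_KO than in both labelled Cry/Per/Nr1d_KO. Of these 7, 4 were called (Arntl, Cry1, Nr1d1 and Per1), beside 16.8% of all genes tested. The groups rest on the labels alone, so both pairs are named by their labels throughout, and no difference between them is assigned to NR1D proteins. Under the deposited names the level of each library would be the same, the sign of every difference between these 2 pairs would be reversed, and the pair set against Per/Nr1d_KO cells would change its name.

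Library totals ran from 53764390 to 85927236 counts. TMM-scaled counts are given for a library of the mean effective size, 65881749 counts, and levels of different genes were compared only as RPKM, which divides them by exon length and library size. Counting error alone puts the upper limit of a 0 at 3 counts, or 2.37 to 3.80 normalized counts by library. The targeted genes kept at least 1004 normalized counts each in every library, so transcript counts do not check the knockouts. 

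Of 10 fibroblast markers, 8 had over 100 normalized counts in every library, while Thy1 and Lum had at most 9.77. The fibroblast markers summed to 3270 and 3439 RPKM in the pair labelled Cry/Per/Nr1d_KO, 2228 and 2259 in the pair labelled Cry/Per_KO and 3241 and 3253 in Per/Nr1d_KO cells. All 8 that were tested were called between Per/Nr1d_KO cells and the pair labelled Cry/Per/Nr1d_KO, beside 20.7% of all genes tested. Of these, 4 were higher in Per/Nr1d_KO cells (among them Col3a1, with 42810 and 43797 against 836 and 801 normalized counts) and 4 were lower. In the pair labelled Cry/Per_KO relative to that labelled Cry/Per/Nr1d_KO, 2 of the 8 were called, beside 16.8%. Between Per/Nr1d_KO cells and the pair labelled Cry/Per_KO, 6 were called, beside 29%. The 3 neural markers summed to 14.4 and 15.9 RPKM in the pair labelled Cry/Per/Nr1d_KO and to between 2.90 and 5.49 elsewhere, nearly all of it Tubb3, while Sox10 and Rbfox3 had at most 3 counts in every library. The 4 trophoblast markers summed to 1.09 and 1.36 RPKM in the same pair and to between 0.535 and 0.609 elsewhere. Among them Eomes had 168 and 142, 107 and 108, and 5.07 and 5.52 normalized counts, Cdx2 had 45.3 and 34.4 in that pair and under 1 elsewhere, and Elf5 was at or near 0. Gata3, the fourth, was highest in Per/Nr1d_KO cells, with 152 and 133 against 115 and 89.96 in the pair labelled Cry/Per/Nr1d_KO and 47.9 and 41.2 in the pair labelled Cry/Per_KO. Other markers were highest in Per/Nr1d_KO cells. The 4 epithelial markers summed to 0.515 and 0.536 RPKM there and to between 0.0904 and 0.347 elsewhere, with Cdh1 at 100.1 and 110 normalized counts against at most 27.8. Epcam, by contrast, had 25.7 and 33.3 normalized counts in the pair labelled Cry/Per/Nr1d_KO, 13.4 and 8.84 in the pair labelled Cry/Per_KO and 26.6 and 18.1 in Per/Nr1d_KO cells, and Krt5 and Krt14 had at most 3 counts in a library. The 2 blood markers summed to 3.12 and 3.34 RPKM there and to between 1.32 and 1.95 elsewhere, and Cd68 was called higher in Per/Nr1d_KO cells than in either other pair (1.14 ± 0.13 and 0.81 ± 0.13 on the log2 scale), while Ptprc was at or near 0. The endothelial (3), pluripotent (3) and muscle (2) markers summed to at most 0.231, 0.292 and 0.0181 RPKM in any library. Imprinted genes below were highest in the pair labelled Cry/Per/Nr1d_KO or in Per/Nr1d_KO cells too, and the part of these markers in their levels was not tested. In bulk RNA, fewer cells of a type and less RNA per cell cannot be told apart.

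The imprinted genes ranged from abundant to undetected. Of the 40, 17 reached a mean of 100 normalized counts and were tested, and 23 did not. Among those 23, 6 had no count in any library (Meg3, Peg3, Usp29, Zim1, Klf14 and Magel2), and 10 had at most 3 counts in every library (these 6 with Rian, Rtl1, Calcr and Snrpn). By length, Gnas, which encodes the stimulatory G protein alpha subunit, had the highest level, with pair means of 83.3 to 99.98 RPKM. Grb10, an adaptor that restrains insulin and IGF signalling, lay at 37.6 to 63.4 RPKM. Igf2r, the receptor that carries IGF2 to lysosomes, was at 18.6 to 47.9 RPKM, above Grb10 in Per/Nr1d_KO cells, and Impact, an inhibitor of GCN2 stress signalling, at 13.9 to 29.4 RPKM. The amino acid transporter gene Slc38a4 spanned 0.755 to 36.1 RPKM.

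**Figure D1:**
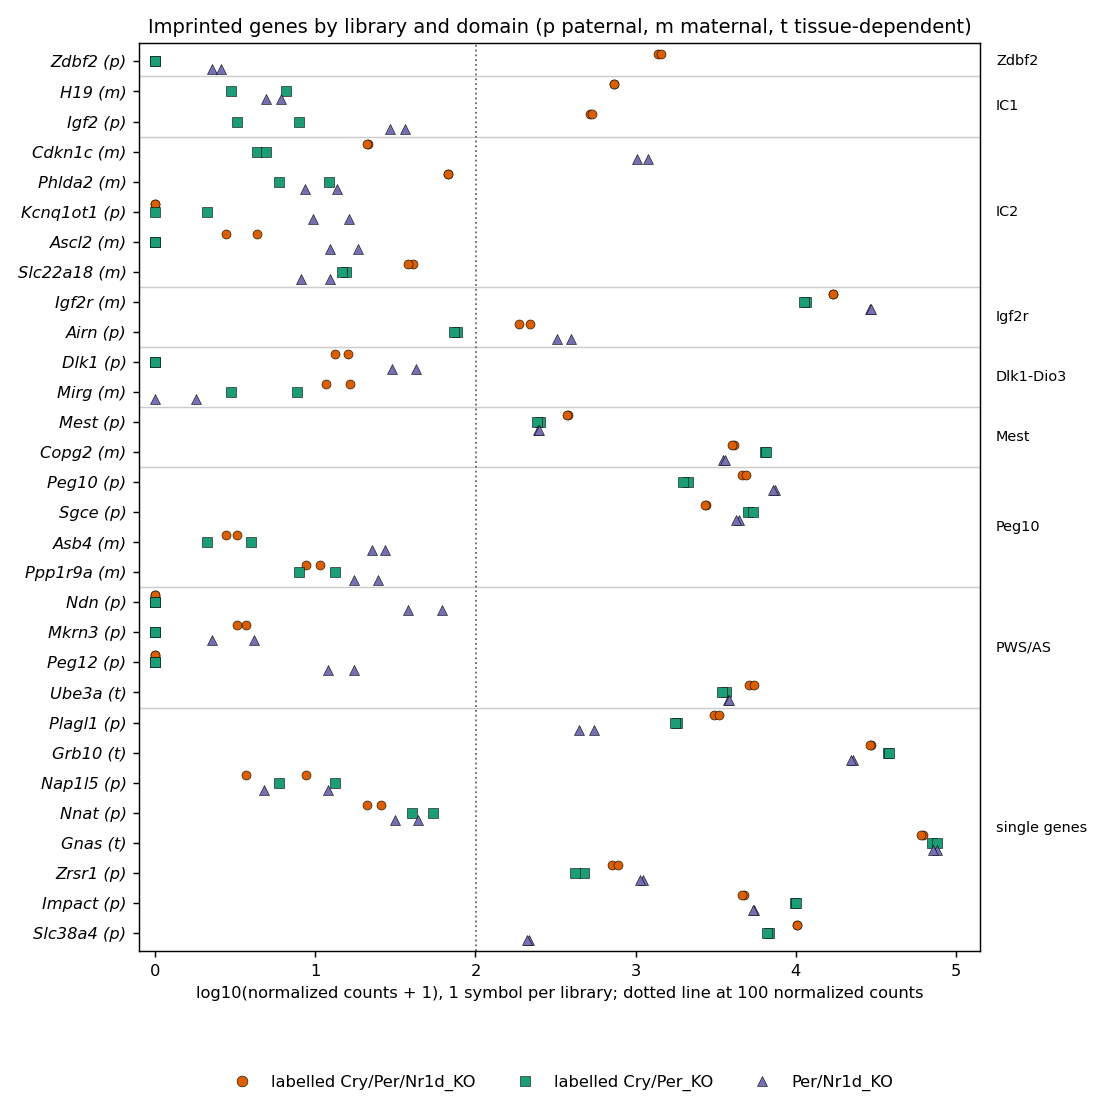
Normalized counts of the 30 imprinted genes with more than 3 counts in some library, on a log10 axis after adding 1, with 1 symbol for each of the 6 libraries and genes grouped by domain. Zdbf2, H19 and Igf2 stood above 100 normalized counts in the pair labelled Cry/Per/Nr1d_KO (circles), Cdkn1c in Per/Nr1d_KO cells (triangles), and Slc38a4 was lowest in Per/Nr1d_KO cells.

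A gene was called when edgeR's quasi-likelihood test gave a Benjamini-Hochberg adjusted p under 0.05 over the 11934 genes tested and the log2 fold change was above 0.81 in size. Because the list was chosen with earlier results of these data known, the shares called below are descriptions and no test of imprinted genes as a set. In the pair labelled Cry/Per_KO relative to that labelled Cry/Per/Nr1d_KO, 9 of the 17 imprinted genes tested were called, beside 16.8% of all genes tested. Of these, 2 were higher (Sgce and Impact, beside 7.86% of all genes) and 7 were lower (Zdbf2, H19, Igf2, Cdkn1c, Airn, Peg10 and Plagl1, beside 8.95%). The median log2 fold change was -0.61 over the 17 and -0.0033 over all genes tested. Zdbf2, H19, Igf2 and Cdkn1c reached the mean of 100 through 1 pair of libraries alone, so they had to differ somewhere. Among the other 13, 5 were called in this comparison, with a median of -0.58. With DESeq2 at an adjusted p under 1e-22 and the same fold limit, 5 of the 17 and 1147 of all genes were called, and the calls of Zdbf2, Airn, Cdkn1c and Plagl1 were lost.

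Between Per/Nr1d_KO cells and the pair labelled Cry/Per/Nr1d_KO, 7 of the 17 were called, beside 20.7% of all genes tested. Cdkn1c and Airn were higher in Per/Nr1d_KO cells, beside 11.3% of all genes, and Zdbf2, H19, Igf2, Plagl1 and Slc38a4 were lower, beside 9.35%. The median was -0.18 over the 17 and 0.011 over all genes tested, and among the 13 that did not pass through 1 pair alone, 3 were called, with a median of 0.21. With a mean of at least 10 the split was 5 higher and 7 lower of 23, beside 1975 higher and 1937 lower of 14770 genes. Of these members Dlk1, Ppp1r9a and Ndn (higher) and Phlda2 (lower) passed that limit through 1 pair alone, so they had to differ somewhere. Without a limit it was 9 higher and 8 lower of 34, beside 2242 and 2334 of 20375. Between Per/Nr1d_KO cells and the pair labelled Cry/Per_KO, 10 of the 17 were called, beside 29% of all genes tested. Igf2, Cdkn1c, Igf2r, Airn, Peg10 and Zrsr1 were higher in Per/Nr1d_KO cells, beside 15.2%, and Copg2, Plagl1, Impact and Slc38a4 were lower, beside 13.8%. The median was 0.085 over the 17 and 0.035 over all genes tested, and 8 of the 13 were called. At a mean of at least 10 the split was 9 higher and 4 lower of 23, beside 2514 higher and 2482 lower of 14770 genes. Dlk1, Ppp1r9a and Ndn were again among the higher. Without a limit 13 were higher and 4 lower of 34, beside 2818 and 2772 of 20375. With DESeq2 at an adjusted p under 1e-22, 6 and 9 of the 17 were called in these comparisons, beside 1801 and 2589 of all genes, and the calls of Airn in the former and Igf2 in the latter were lost. The 3 comparisons share libraries, so their counts are not independent of each other.

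**Figure D2:**
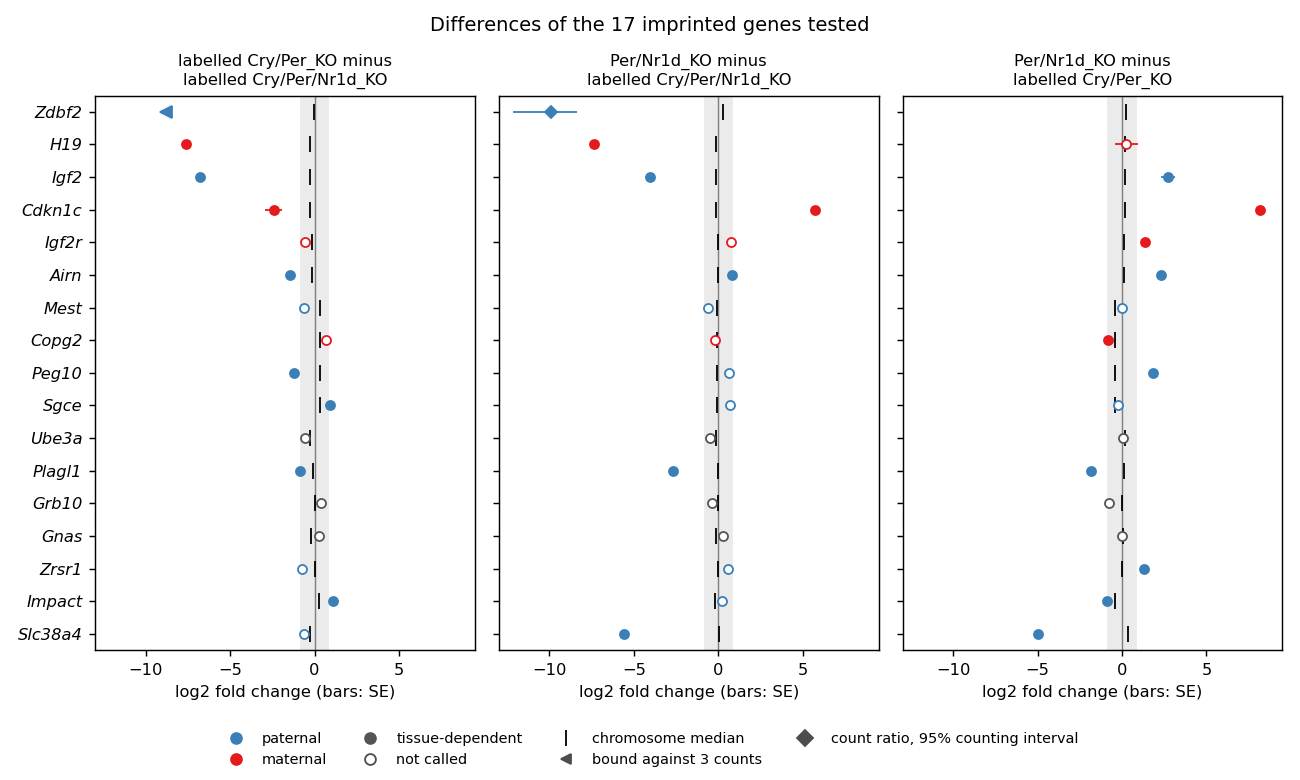
Log2 fold changes of the 17 imprinted genes tested, with standard errors, in 3 comparisons of 2 libraries against 2. Colours give the parental copy usually expressed, filled circles were called, open circles were not, the grey band marks differences under the limit of 0.81, and black ticks give the median of the other tested genes of the same chromosome. Zdbf2 is drawn as a bound (triangle) or as a ratio of counts with its 95% counting interval (diamond), since a fitted value against counts near 0 is no bound.

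Genes of either parental origin were found at their highest level in each of the 3 lines. Of the 22 paternally expressed genes 10 were tested, and of the 15 maternally expressed genes 4. Zdbf2 and Igf2 among the former and H19 and Cdkn1c among the latter had passed through 1 pair alone. Without these, 5, 3 and 6 of 8 paternally expressed genes and 0, 0 and 2 of 2 maternally expressed genes (Igf2r and Copg2) were called by edgeR in the 3 comparisons in the order above, where 16.8%, 20.7% and 29% of all genes were. Igf2r and Copg2 were not called by DESeq2 with the fold limit in the first 2 comparisons either, and both passed edgeR's adjusted p under 0.05 there without that limit. With the genes that passed through 1 pair the counts were 7, 5 and 7 of 10 and 2, 2 and 3 of 4. The 3 tissue-dependent genes were tested and none was called by edgeR or by DESeq2 with the fold limit, although in edgeR at an adjusted p under 0.05 without that limit Grb10 passed in all 3 comparisons and Gnas and Ube3a in the first 2. Among the 30 genes with more than 3 counts in some library, the pair with the highest mean was Per/Nr1d_KO for 13, the pair labelled Cry/Per/Nr1d_KO for 11 and the pair labelled Cry/Per_KO for 6. The highest pair of paternally expressed genes was, in the same order, Per/Nr1d_KO for 7, labelled Cry/Per/Nr1d_KO for 6 and labelled Cry/Per_KO for 4 of 17. The same counts for the maternally expressed genes were 5, 4 and 1 of 10. The 2 libraries of the highest pair did not overlap the next pair for 12 of the 13, 10 of the 11 and 4 of the 6, or 26 of 30. The same held for 77.4% of the 17448 genes with more than 3 counts in some library, so non-overlap was common in these data.

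Zdbf2 (Entrez Gene 73884, chr1:63200358-63314576 in GRCm38, the assembly of mm10) is a paternally expressed gene of a zinc finger protein that affects growth after birth. It was present in the pair labelled Cry/Per/Nr1d_KO, with 1377 and 1432 normalized counts, and close to absent elsewhere. Zdbf2 reached the expression limit through that pair alone, so it had to differ somewhere. The pair labelled Cry/Per_KO had 0 counts in both libraries and Per/Nr1d_KO cells had 1 and 2 counts. Against the floor of 3 counts per library, the level in the pair labelled Cry/Per/Nr1d_KO was at least 447-fold higher than in the pair labelled Cry/Per_KO (adjusted p = 4.6e-14 by edgeR's quasi-likelihood test). The ratio to Per/Nr1d_KO cells was 960, with a 95% counting interval of 328 to 4660 (adjusted p = 6.61e-15 in the same fit). The 9 other tested genes within 1 Mb had a median log2 fold change of -0.0045 in the first of these comparisons and 0.20 in the second. RefSeq gives Zdbf2 2 starts, and both promoters are shown because the gene went from 0 counts to 1377 or more normalized counts between lines. Each runs from 250 bases before to 50 after the start on the plus strand of GRCm38.p6, and capitals mark TGCCGC or its complement GCGGCA, the letters that the imprint-keeping factor ZFP57 binds when methylated.
Zdbf2, chr1:63200108-63200407: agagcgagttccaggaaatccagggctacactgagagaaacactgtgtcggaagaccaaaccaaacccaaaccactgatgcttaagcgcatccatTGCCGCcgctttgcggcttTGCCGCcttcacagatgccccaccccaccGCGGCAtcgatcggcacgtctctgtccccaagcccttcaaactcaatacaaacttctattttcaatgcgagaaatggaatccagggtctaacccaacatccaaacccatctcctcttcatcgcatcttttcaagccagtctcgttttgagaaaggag
Zdbf2, chr1:63273019-63273318: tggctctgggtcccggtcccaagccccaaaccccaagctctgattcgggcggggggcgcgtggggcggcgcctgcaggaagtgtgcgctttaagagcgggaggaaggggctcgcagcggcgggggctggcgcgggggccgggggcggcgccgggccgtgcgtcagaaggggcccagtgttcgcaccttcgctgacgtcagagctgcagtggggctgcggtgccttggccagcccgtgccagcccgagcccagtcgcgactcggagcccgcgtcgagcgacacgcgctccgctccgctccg
The first holds 15 CpG dinucleotides and 3 matches, and the second holds 38 CpG and no match. No methylation was measured, and a match is a description of the letters alone.

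H19 and Igf2 share a control region on chromosome 7 and enhancers beyond H19, and by general knowledge are read from opposite parental copies. H19 (14955, chr7:142575530-142578146), a maternally expressed long noncoding RNA, had 728 and 727 normalized counts in the pair labelled Cry/Per/Nr1d_KO. It had 5.56 and 1.96 in the pair labelled Cry/Per_KO and 5.07 and 3.95 in Per/Nr1d_KO cells. Igf2 (16002, chr7:142650768-142666816), which encodes the growth factor IGF2 and is paternally expressed, had 515 and 536 normalized counts in the pair labelled Cry/Per/Nr1d_KO. It had 2.23 and 6.87 in the pair labelled Cry/Per_KO, and 35.5 and 28.4 in Per/Nr1d_KO cells. Both genes were thus high in the same pair of libraries, and no library of another pair came near it. H19 and Igf2 reached the expression limit through that pair alone, so they had to differ somewhere.

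The difference of H19 from the pair labelled Cry/Per/Nr1d_KO was -7.59 ± 0.22 (log2 fold change ± SE, edgeR adjusted p = 3.04e-13) in the pair labelled Cry/Per_KO and -7.34 ± 0.21 in Per/Nr1d_KO cells. Igf2 differed by -6.77 ± 0.23 and -4.07 ± 0.16. The differences from the pair labelled Cry/Per_KO depended on its few counts. Without its replicate 1 H19 was at -8.45, and without its replicate 2 at -7.00, and Igf2 was at -7.80 without its replicate 2, all still called. Per/Nr1d_KO cells exceeded the pair labelled Cry/Per_KO in Igf2 by 2.70 ± 0.42 (edgeR adjusted p = 2.58e-05), a difference that rests on 9 counts in the lower pair and was 3.74 without replicate 2 of that pair. H19 did not differ detectably between those pairs, at 0.25 ± 0.67 (edgeR adjusted p = 0.74). The 13 other tested genes within 1 Mb had medians of -0.30 and -0.26 in the first 2 comparisons. Of the Igf2 exon bases, 62.8% are shared on the same strand with the gene model Gm49394, so reads there could have been left uncounted or split.

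In the neighbouring control region's domain on the same chromosome, the highest level of the best-covered gene was in Per/Nr1d_KO cells. Cdkn1c (12577, chr7:143458339-143461059), a maternally expressed inhibitor of cyclin-dependent kinases, had 1191 and 1012 normalized counts in Per/Nr1d_KO cells. It had 20.4 and 19.99 in the pair labelled Cry/Per/Nr1d_KO, and 3.34 and 3.93 in the pair labelled Cry/Per_KO. The 3 pairs did not overlap. Cdkn1c reached the expression limit through Per/Nr1d_KO cells alone, so it had to differ somewhere. Per/Nr1d_KO cells exceeded the pair labelled Cry/Per/Nr1d_KO by 5.75 ± 0.16 on the log2 scale (edgeR adjusted p = 3.05e-14) and the pair labelled Cry/Per_KO by 8.18 ± 0.21 (edgeR adjusted p = 1.26e-14). The pair labelled Cry/Per_KO lay below the pair labelled Cry/Per/Nr1d_KO by 2.43 ± 0.49 (fold change -2.43 on the log2 scale, edgeR adjusted p = 0.000359). Exon bases of Cdkn1c are shared for 30.7% with the gene model Gm44732 on the opposite strand, which matters only if the counting, whose strand setting is not given in the sources used here, ignored strand.

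The other genes of this domain had too few counts for the test. Kcnq1ot1 is the paternally expressed noncoding RNA that silences the domain, and it lies wholly within the body of Kcnq1 on the opposite strand. It had 12 and 11 counts in Per/Nr1d_KO cells, 1 and 0 in the pair labelled Cry/Per_KO and 0 in both libraries labelled Cry/Per/Nr1d_KO. Per/Nr1d_KO cells were at least 3.98-fold higher than the latter, with the lower pair at 3 counts per library. Ascl2, a trophoblast transcription factor gene, had 9 and 22 counts in Per/Nr1d_KO cells, 2 and 3 in the pair labelled Cry/Per/Nr1d_KO and 0 in both libraries labelled Cry/Per_KO. Phlda2, which restrains placental growth, and Slc22a18, a transporter gene, were highest in the pair labelled Cry/Per/Nr1d_KO. Phlda2 had 66.6 normalized counts in both libraries labelled Cry/Per/Nr1d_KO and between 4.91 and 12.6 elsewhere. Slc22a18 had 39.95 and 36.6 there, and between 7.10 and 14.5 elsewhere. Within 1 domain, then, the noncoding RNA, Cdkn1c and Ascl2 were highest in Per/Nr1d_KO cells, and Phlda2 and Slc22a18 in the pair labelled Cry/Per/Nr1d_KO.

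Igf2r and Airn form a domain on chromosome 17 in which the paternally expressed noncoding RNA Airn runs through the Igf2r promoter on the other strand and silences the paternal copy of Igf2r. Igf2r (16004, chr17:12682406-12769706) had 17105 and 17142 normalized counts in the pair labelled Cry/Per/Nr1d_KO, 11564 and 11301 in the pair labelled Cry/Per_KO, and 29114 and 29592 in Per/Nr1d_KO cells. Airn (104103, chr17:12741311-12859884) had 218 and 185, 75.7 and 72.7, and 321 and 394 in the same order. The 2 genes had the same order of lines, with no overlap between pairs. Igf2r was called only between Per/Nr1d_KO cells and the pair labelled Cry/Per_KO, at 1.36 ± 0.041 (edgeR adjusted p = 8.41e-14). Its other differences, -0.58 ± 0.041 and 0.78 ± 0.040, passed the adjusted p but not the fold limit.

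Airn was called in every comparison, at -1.45 ± 0.17, 0.83 ± 0.13 and 2.28 ± 0.15 on the log2 scale. The call of 0.83 was lost in edgeR's test against the fold limit itself (glmTreat), without replicate 2 of the pair labelled Cry/Per/Nr1d_KO (0.73), without replicate 2 of Per/Nr1d_KO cells (0.65) and at the adjusted p under 1e-22. Per exon length, Airn amounted to 3.29% and 2.80% of the RPKM of Igf2r in the pair labelled Cry/Per/Nr1d_KO, 1.69% and 1.66% in the pair labelled Cry/Per_KO, and 2.85% and 3.44% in Per/Nr1d_KO cells. No exon base of the 2 genes is shared, but 26% of the Airn exon bases lie within the bodies of Igf2r and 2 other genes on the opposite strand, and whether the counting used strand is not given, so reads of Airn and of those genes cannot be told apart there. The Igf2r promoter is shown for its CpG content and because it holds CACGTG, the E-box that the clock activators CLOCK and BMAL1 bind, here in capitals (minus strand of GRCm38.p6, 5' to 3').
Igf2r, chr17:12769657-12769956: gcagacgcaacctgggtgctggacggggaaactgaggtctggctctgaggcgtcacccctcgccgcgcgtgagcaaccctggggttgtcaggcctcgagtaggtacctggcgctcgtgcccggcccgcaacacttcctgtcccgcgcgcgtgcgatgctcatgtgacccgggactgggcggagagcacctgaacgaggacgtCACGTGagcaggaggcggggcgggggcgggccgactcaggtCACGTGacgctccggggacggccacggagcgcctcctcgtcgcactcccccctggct
It holds 34 CpG dinucleotides and 2 matches to CACGTG, which reads the same on both strands, and none to TGCCGC.

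The Mest domain on chromosome 6 holds a pair of genes that overlap at their ends. Mest (17294, chr6:30733506-30748466), a paternally expressed gene of mesoderm, had 377 and 372 normalized counts in the pair labelled Cry/Per/Nr1d_KO, 252 and 240 in the pair labelled Cry/Per_KO, and 243 and 248 in Per/Nr1d_KO cells. It differed from the first pair by -0.61 ± 0.10 in both others, under the fold limit, and by 0.0030 ± 0.11 between the others (edgeR adjusted p = 0.98). Copg2 (54160, chr6:30747554-30896815), which encodes a coat protein of transport vesicles and is maternally biased, had 4134 and 3970, 6458 and 6546, and 3524 and 3634. It was lower in Per/Nr1d_KO cells than in the pair labelled Cry/Per_KO by 0.86 (log2 fold change -0.86 ± 0.047, edgeR adjusted p = 1.24e-10). That call was lost in edgeR's test against the fold limit itself (glmTreat), and the median of the other tested genes of chromosome 6 was -0.41 in the same comparison. The ends of Mest and Copg2 overlap on opposite strands, over 23.1% of the Mest and 17.8% of the Copg2 exon bases. The RPKM of Mest was 11.8% and 12.2% of that of Copg2 in the pair labelled Cry/Per/Nr1d_KO, 5.06% and 4.75% in the pair labelled Cry/Per_KO, and 8.97% and 8.85% in Per/Nr1d_KO cells. The third gene, Klf14, had no count.

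Peg10 and Sgce, also on chromosome 6, start next to each other from one control region and are both paternally expressed. They differed in opposite directions in the first comparison, and in the same direction in the second. Peg10 (170676, chr6:4747306-4760517), a retrotransposon-derived gene needed in the placenta, had 4594 and 4921 normalized counts in the pair labelled Cry/Per/Nr1d_KO, 2126 and 1967 in the pair labelled Cry/Per_KO, and 7464 and 7164 in Per/Nr1d_KO cells. Sgce (20392, chr6:4674350-4747204), which encodes epsilon-sarcoglycan, had 2743 and 2723, 4998 and 5389, and 4444 and 4228. In the pair labelled Cry/Per_KO relative to the pair labelled Cry/Per/Nr1d_KO, Peg10 was 2.33-fold lower (SE 0.056 on the log2 scale, edgeR adjusted p = 5.05e-11) and Sgce was higher by 0.93 ± 0.053 on that scale (edgeR adjusted p = 5.13e-10). In Per/Nr1d_KO cells relative to the pair labelled Cry/Per/Nr1d_KO the log2 fold changes were 0.62 ± 0.053 and 0.66 ± 0.053, both under the fold limit. The RPKM of Peg10 was 2.67 and 2.88 times that of Sgce in the pair labelled Cry/Per/Nr1d_KO, 0.677 and 0.581 times in the pair labelled Cry/Per_KO, and 2.67 and 2.70 times in Per/Nr1d_KO cells. The ratio was thus close in 2 lines and apart in the third.

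The 12 other tested genes within 1 Mb of this domain had a median log2 fold change of 0.56 in the pair labelled Cry/Per_KO relative to that labelled Cry/Per/Nr1d_KO, and those of the whole chromosome 0.34, so that Sgce had the sign of its neighbours' median and Peg10 the opposite sign. In Per/Nr1d_KO cells relative to the pair labelled Cry/Per_KO, Peg10 was higher by 1.84 ± 0.056 (edgeR adjusted p = 9.28e-14), and Sgce differed by -0.26 ± 0.051. The maternally expressed genes of the domain were scarce. Asb4, an ankyrin repeat gene, had 17 and 33 counts in Per/Nr1d_KO cells and at most 3 in every other library. Ppp1r9a, which encodes the actin-binding neurabin, had 16.5 and 23.7 normalized counts in Per/Nr1d_KO cells and 6.87 to 12.2 elsewhere. Calcr, the calcitonin receptor gene, had 3 counts in a single library.

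**Figure D3:**
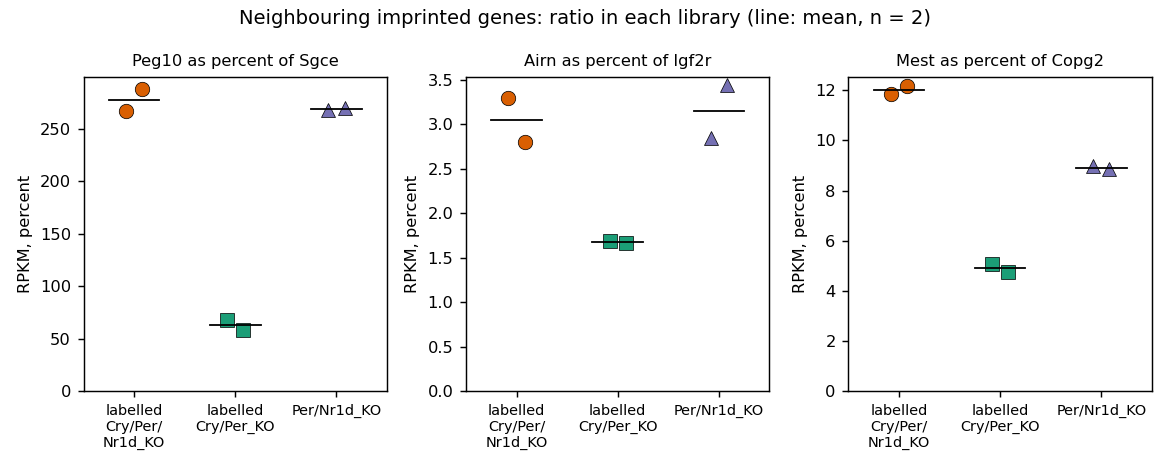
Ratio of the RPKM of 3 pairs of neighbouring imprinted genes in each library, as a percentage, with the mean of 2 libraries as a line. Peg10 was 267% and 288% of Sgce in the pair labelled Cry/Per/Nr1d_KO, 267% and 269.7% in Per/Nr1d_KO cells and 67.7% and 58.1% in the pair labelled Cry/Per_KO, which was also the lowest for Airn as a share of Igf2r and Mest as a share of Copg2.

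The Dlk1-Dio3 domain on chromosome 12 holds paternally expressed coding genes and a string of maternally expressed noncoding RNAs. Dlk1, which encodes a membrane protein that holds back adipocyte differentiation, had 17 and 11 counts in the pair labelled Cry/Per/Nr1d_KO, 0 in both libraries labelled Cry/Per_KO and 33 and 37 in Per/Nr1d_KO cells. Per/Nr1d_KO cells were at least 11.3-fold higher than the pair labelled Cry/Per_KO, with the latter at 3 counts per library. Meg3, the noncoding RNA at the head of the maternal string, had no count in any library. Mirg, at its far end and host to many microRNAs, had 12 and 14 counts in the pair labelled Cry/Per/Nr1d_KO, 6 and 2 in the pair labelled Cry/Per_KO and 0 and 1 in Per/Nr1d_KO cells. Rian and Rtl1 had at most 2 counts.

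Dio3 (107585), the thyroid hormone-inactivating deiodinase gene at the other end of the domain, is outside the list of 40 and belongs to a second list of 32 imprinted or neighbouring genes, of which 31 were matched and 20 tested. Dio3 had 358 and 309 normalized counts in the pair labelled Cry/Per/Nr1d_KO, 0 and 0.982 in the pair labelled Cry/Per_KO and 835 and 806 in Per/Nr1d_KO cells, the same order of lines as Dlk1. In the second list 8, 5 and 8 of the 20 genes were called in the 3 comparisons, beside 16.8%, 20.7% and 29% of all genes. Ano1 passed the expression limit through Per/Nr1d_KO cells alone, so it had to differ somewhere, and it is among those called in each comparison. The largest differences by the naming rule were those of Dio3, Phactr2, Ano1, Adam23 and Sfmbt2. Phactr2, a phosphatase and actin regulator gene, was higher in the pair labelled Cry/Per_KO than in the pair labelled Cry/Per/Nr1d_KO by 2.88 ± 0.064 on the log2 scale (edgeR adjusted p = 1.79e-14). Ano1, a chloride channel gene, was higher in Per/Nr1d_KO cells than in the pair labelled Cry/Per/Nr1d_KO by 6.65 ± 0.16 (edgeR adjusted p = 4.98e-15), and with means of 11.7, 3.21 and 1199 normalized counts it had reached the expression limit through Per/Nr1d_KO cells alone. Sfmbt2, a Polycomb group gene, was higher in the same comparison by 2.38 ± 0.063 (edgeR adjusted p = 1.96e-14). Adam23, a neighbour of Zdbf2 on chromosome 1, had 790 and 820, 2464 and 2362, and 8.87 and 8.68 normalized counts, so it was present in the pair labelled Cry/Per_KO, where Zdbf2 had no count.

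On the proximal arm of chromosome 7, Peg3, Usp29 and Zim1 had no count in any of the 6 libraries. Peg3 encodes a large zinc finger protein that is abundant in many mesenchymal tissues, and it is paternally expressed. The Peg3 promoter is shown as that of a gene with no reads in any line (minus strand of GRCm38.p6, 5' to 3').
Peg3, chr7:6730370-6730669: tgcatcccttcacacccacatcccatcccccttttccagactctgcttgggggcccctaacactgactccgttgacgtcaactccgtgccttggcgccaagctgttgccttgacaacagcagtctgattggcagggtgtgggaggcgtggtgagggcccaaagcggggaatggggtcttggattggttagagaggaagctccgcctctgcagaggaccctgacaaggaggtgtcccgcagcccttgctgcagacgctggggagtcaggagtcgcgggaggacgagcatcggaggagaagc
It holds 13 CpG dinucleotides and matches neither to TGCCGC nor to CACGTG in this window.

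In the Prader-Willi and Angelman domain further along chromosome 7, the 5 genes other than Ube3a had at most 3 counts in every library but those of Per/Nr1d_KO cells. Ndn, which encodes the growth suppressor necdin, had 48 and 47 counts in Per/Nr1d_KO cells and 0 in the other 4 libraries. Their level was at least 15.6-fold that of the pair labelled Cry/Per_KO, and the bound against the pair labelled Cry/Per/Nr1d_KO was 16.3-fold, with the lower pair at 3 counts per library. Peg12, an intronless paternally expressed gene, showed the same order with 13 and 14 counts against 0, or at least 4.38-fold the level of the pair labelled Cry/Per_KO and 4.59-fold that of the pair labelled Cry/Per/Nr1d_KO. Mkrn3, which lies between Ndn and Peg12, had at most 4 counts in a library, and Magel2, between Ndn and Mkrn3, had 0 throughout. Snrpn, the spliceosomal protein gene at the control region, had 1 count in a single library, but 27.3% of its exon bases are shared on the same strand with Snurf and Gm38393, so reads there could have been left uncounted.

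Ube3a (22215, chr7:59228750-59310837), a ubiquitin ligase gene that is maternally expressed in neurons and from both copies elsewhere, was the one gene of this domain that passed the expression limit. It had 5080 and 5476 normalized counts in the pair labelled Cry/Per/Nr1d_KO, 3688 and 3479 in the pair labelled Cry/Per_KO, and 3782 and 3817 in Per/Nr1d_KO cells. The first pair lay above both others, with differences of -0.56 ± 0.052 and -0.47 ± 0.052 that stayed under the fold limit. The others differed by 0.085 ± 0.053 (edgeR adjusted p = 0.149). Relative to the first pair, the other tested genes of chromosome 7 had medians of -0.26 in the pair labelled Cry/Per_KO and -0.11 in Per/Nr1d_KO cells. Of the Ube3a exon bases 27.3% are shared on the opposite strand, with Snhg14 among others.

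Among the genes outside large domains, Slc38a4 and Plagl1 were lowest in Per/Nr1d_KO cells. Slc38a4 (69354, chr15:96994816-97055956), which encodes a transporter of neutral amino acids in liver and placenta, had 10116 and 10176 normalized counts in the pair labelled Cry/Per/Nr1d_KO and 6771 and 6650 in the pair labelled Cry/Per_KO. It had 215 and 208 in Per/Nr1d_KO cells. The difference of Per/Nr1d_KO cells was -5.59 ± 0.062 from the former pair (edgeR adjusted p = 1.82e-18) and -4.99 ± 0.062 from the latter (edgeR adjusted p = 3.67e-18). The 13 other tested genes within 1 Mb had medians of 0.27 and 0.82 in those comparisons, opposite to Slc38a4. In the pair labelled Cry/Per_KO relative to that labelled Cry/Per/Nr1d_KO, Slc38a4 differed by -0.60 ± 0.044 and its neighbours by -0.65. The median over the other tested genes of chromosome 15 was -0.29 in that comparison.

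Plagl1 (22634, chr10:13090832-13131694), a zinc finger factor known to regulate other imprinted genes, had 3069 and 3298 normalized counts in the pair labelled Cry/Per/Nr1d_KO, 1822 and 1751 in the pair labelled Cry/Per_KO, and 549 and 444 in Per/Nr1d_KO cells. The pairs did not overlap. Its log2 fold changes were -0.83 ± 0.074, -2.70 ± 0.085 and -1.87 ± 0.086 in the 3 comparisons (edgeR adjusted p = 8.35e-08, 1.81e-13 and 1.57e-11). The first call was lost in edgeR's test against the fold limit itself (glmTreat), without replicate 2 of the pair labelled Cry/Per/Nr1d_KO (-0.78) and without replicate 2 of the pair labelled Cry/Per_KO (-0.80). The Plagl1 promoter is shown because it holds both TGCCGC (as GCGGCA) and CACGTG, in capitals (plus strand of GRCm38.p6).
Plagl1, chr10:13090582-13090881: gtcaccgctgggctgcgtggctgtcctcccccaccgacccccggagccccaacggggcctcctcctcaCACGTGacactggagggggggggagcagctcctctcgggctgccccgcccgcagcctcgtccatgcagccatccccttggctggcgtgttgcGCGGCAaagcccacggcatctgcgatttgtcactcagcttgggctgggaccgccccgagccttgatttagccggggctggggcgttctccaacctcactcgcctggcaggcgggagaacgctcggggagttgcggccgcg
It holds 26 CpG dinucleotides.

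Impact (16210, chr18:12954690-12992950) had its highest level in the pair labelled Cry/Per_KO, with 9835 and 10013 normalized counts against 4773 and 4643 in the pair labelled Cry/Per/Nr1d_KO and 5509 and 5413 in Per/Nr1d_KO cells. It was higher there by 1.08 ± 0.044 than in the pair labelled Cry/Per/Nr1d_KO (edgeR adjusted p = 1.57e-11), and Per/Nr1d_KO cells were lower than it by 0.86 (log2 fold change -0.86 ± 0.044, edgeR adjusted p = 5.24e-11). The other tested genes of chromosome 18 had medians of the same sign, 0.27 and -0.45. So did the 8 within 1 Mb, at 0.51 and -0.67. Of these 8, 2 and 3 were called, beside 16.8% and 29% of all genes tested. The second call was lost in edgeR's test against the fold limit itself (glmTreat).

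Zrsr1 (22183, chr11:22972005-22976496), a retrogene of a splicing factor within the body of Commd1 on the opposite strand (9.17% of its exon bases are shared with Commd1 exons), had 714 and 775 normalized counts in the pair labelled Cry/Per/Nr1d_KO, 474 and 419 in the pair labelled Cry/Per_KO and 1118 and 1060 in Per/Nr1d_KO cells. Per/Nr1d_KO cells exceeded the pair labelled Cry/Per_KO by 1.29 ± 0.087 (edgeR adjusted p = 1.54e-09). The pair labelled Cry/Per_KO differed from that labelled Cry/Per/Nr1d_KO by -0.74 ± 0.089, under the fold limit, and without replicate 1 of the pair labelled Cry/Per_KO it was called, at -0.83. Its host Commd1 was lower in Per/Nr1d_KO cells than in the pair labelled Cry/Per_KO, by 0.94 (log2 fold change -0.94 ± 0.066, edgeR adjusted p = 2.48e-09). Nap1l5 and Nnat also lie wholly within other genes, Herc3 and Blcap, on the opposite strand. Nap1l5, a nucleosome assembly protein-like gene, had 3 to 14 counts in each library. Nnat, which encodes the small membrane protein neuronatin, had 19.99 to 53.4 normalized counts, highest in the pair labelled Cry/Per_KO, whose range overlapped that of Per/Nr1d_KO cells.

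Gnas and Grb10, both abundant, stayed under the fold limit in all 3 comparisons. Gnas (14683, chr2:174284320-174346744) had 62179 and 60546 normalized counts in the pair labelled Cry/Per/Nr1d_KO, 70510 and 75888 in the pair labelled Cry/Per_KO and 75796 and 71572 in Per/Nr1d_KO cells. It differed by 0.25 ± 0.049 and 0.26 ± 0.049 from the first pair and by 0.0094 ± 0.049 between the others (edgeR adjusted p = 0.862). The counts pool several transcripts of the locus that are read from different parental copies. Grb10 (14783, chr11:11930499-12037428) had 29458 and 29000, 37486 and 38410, and 22768 and 22259. Its log2 fold changes of 0.38 ± 0.041, -0.38 ± 0.041 and -0.75 ± 0.041 had adjusted p-values of at most 7.76e-07 by edgeR, under the fold limit.

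Promoter sequences were given by RefSeq (GRCm38.p6) for 33 of the 40 genes, with 52 promoters in all. H19, Cdkn1c, Rtl1, Klf14, Peg10, Sgce and Impact had no entry. The median number of CpG dinucleotides per 300-base promoter was 12.5 for the imprinted genes and 7 for all 32851 promoters of 27025 genes. TGCCGC on either strand was found in 13 of the 52 (25%), from 12 genes, and in 11.6% of all promoters. CACGTG was found in 3 of the 52 (5.77%), those of Igf2r, Plagl1 and Ppp1r9a, and in 7.15% of all promoters. The 12 genes with TGCCGC included Zdbf2, Igf2, Mest, Copg2, Grb10 and Plagl1, which were tested, and Meg3, Zim1, Calcr and Snrpn, which had at most 3 counts in every library.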

How the data were processed

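Poly-A RNA of 3 MEF lines was sequenced with a stranded kit (single-end, 50 bases), giving 2 libraries per line. Per the labels, the authors used STAR (mm10) and featureCounts, and 1 file of raw counts per library was deposited, by Entrez Gene ID. Whether counting used strand, and how it treated reads with several matches, is not given in the sources used here. The authors also deposited 2 tables of their own comparisons (DESeq2 mean counts, log2 fold changes, standard errors, p-values and adjusted p-values), which were not used.

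Libraries were grouped by the genotype label. IDs were matched to symbols for 25275 of 27179 genes. Gene positions came from RefSeq, and exon lengths and overlaps from GENCODE vM21. The software was edgeR 4.0.16, DESeq2 1.42.0 and limma 3.58.1 under R 4.3.3. The 11934 genes whose normalized counts averaged 100 or more were tested in 1 quasi-likelihood fit of all 6 libraries with TMM and 3 groups. A call needed an adjusted p (Benjamini-Hochberg) under 0.05 and a fold above 1.75. The standard error is the log2 fold change divided by the square root of F. The biological coefficient of variation was 0.0393, and libraries of a line differed by more than sampling noise (chi-square per degree of freedom 8.14 to 16.8). Intervals and floors (3 counts) cover counting error only.

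The members and lists were chosen with earlier results of these data known. All 40 members are reported, and of the second list and of the imprint maintenance list the 3 called genes with the largest change in each comparison. Alternatives were DESeq2, its adjusted p under 1e-22, median-of-ratios factors, a lower expression filter (mean of 10) or none, no fold limit, glmTreat, fits of 2 groups, a block for the replicate number, and leaving out each library. On data simulated for the comparison of Cry/Per_KO with Cry/Per/Nr1d_KO, the fit recovered 199 of 200 changed genes among 11926, with 0 unchanged genes called. Recovery of differences close to the fold limit was not tested separately.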

Additional observations from a re-analysis of the deposited data

How the results depend on the processing

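Over the 3 comparisons of the 17 genes tested, 765 values under alternatives were set beside the main ones, and 719 kept direction and side of the threshold, 14 lost a call, 21 gained one (20 of them without the fold limit) and 11 changed sign. No sign change concerned a called difference. Between Per/Nr1d_KO cells and the pair labelled Cry/Per_KO, Gnas went to -0.00037 in DESeq2 (also at an adjusted p under 1e-22), -0.00033 with median-of-ratios factors, -0.043 without replicate 1 of the pair labelled Cry/Per_KO and -0.032 without replicate 1 of Per/Nr1d_KO cells (at most 0.063 when a library was left out). Mest went to -0.0088 in DESeq2 (likewise at both thresholds), -0.0073 with median-of-ratios factors, -0.033 without replicate 2 of the pair labelled Cry/Per_KO and -0.010 without replicate 2 of Per/Nr1d_KO cells (at most 0.037 when a library was left out). H19 ranged from -0.34 without replicate 2 of the pair labelled Cry/Per_KO to 1.11 without its replicate 1.

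In the order of comparisons of the report, without the fold limit 17, 17 and 12 imprinted genes and 9118, 9042 and 9793 of all genes passed. Without an expression filter 34 imprinted genes and 20375 genes in all were tested, and 13, 17 and 17 imprinted genes were called beside 3808, 4576 and 5590 of all genes (18.7%, 22.5% and 27.4%), with member medians of -0.67, 0.24 and 0.78. With a mean of at least 10, 23 imprinted genes and 14770 in all were tested, and 13, 12 and 13 were called beside 3311, 3912 and 4996 of all genes (22.4%, 26.5% and 33.8%), with member medians of 0.21 and 0.25 in the last 2 comparisons. At an adjusted p under 1e-22 in DESeq2, 5 imprinted and 1147 of all genes were called in the first comparison. The glmTreat test against the fold limit called 8, 6 and 8 imprinted genes and 1411, 2032 and 2841 of all genes. Leaving out each library gave 8 to 10, 6 to 7 and 10 imprinted genes, 1962 to 2025, 2414 to 2487 and 3377 to 3476 of all genes, and member medians of -0.65 to -0.58, -0.21 to -0.15 and 0.043 to 0.13, where a lone library is assumed to vary like the other groups. The causes of these changes beyond the number of genes or libraries tested were not tested.

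Libraries with the same replicate number did not deviate together (correlations of deviations -0.211, -0.102 and -0.0240), so they share only a number. With the replicate block, 9, 7 and 10 imprinted and 2002, 2468 and 3457 of all genes were called, with member medians of -0.61, -0.18 and 0.085. Depth limits the 10 genes with at most 3 counts in every library, whose levels cannot be told from 0. Of the other 13 genes under the expression limit, 6 entered the fit with a mean of at least 10. Phlda2, Dlk1, Ppp1r9a and Ndn passed that limit through 1 pair alone, so they had to differ somewhere. Their calls are part of the counts given for a mean of at least 10 and are not read as results. Of the other 2, Slc22a18 was called in the first 2 comparisons (-1.44 and -2.11) and Nnat in the first (1.02).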

Other observations

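Genes that keep or remove imprints were measured as a list of 18, of which 15 were tested. In the pair labelled Cry/Per_KO relative to the pair labelled Cry/Per/Nr1d_KO, 3 of the 15 were called, beside 16.8% of all genes, all lower: Tet1, which oxidizes methylcytosine (log2 fold change -1.89 ± 0.17), the histone methyltransferase gene Setdb1 (-1.10 ± 0.046) and the DNA methyltransferase gene Dnmt3b (-0.91 ± 0.11), with edgeR adjusted p-values of 7.41e-08, 1.72e-11 and 2.49e-06. Setdb1 had 7446 and 7621 normalized counts in the pair labelled Cry/Per/Nr1d_KO, 3560 and 3469 in the pair labelled Cry/Per_KO and 10257 and 10613 in Per/Nr1d_KO cells, with no overlap. In Per/Nr1d_KO cells relative to the pair labelled Cry/Per/Nr1d_KO, 1 was called, beside 20.7% of all genes. This was Tet2, higher by 0.999 ± 0.080 on the log2 scale (edgeR adjusted p = 1.93e-08). Relative to the pair labelled Cry/Per_KO, 6 were called, beside 29% of all genes, 4 higher and 2 lower, and the largest were Setdb1 (1.57 ± 0.046), Tet1 (1.52 ± 0.17) and Dnmt1, the maintenance DNA methyltransferase gene (-0.95 ± 0.042).

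Zfp57, whose product binds methylated TGCCGC at imprinted regions, was present in all lines, with 1557 and 1596, 1472 and 1490, and 2153 and 2233 normalized counts. Dppa3 and Ctcfl, genes of egg and testis, had no count in any library, and Dnmt3l, the cofactor of imprint establishment, had at most 11.1 normalized counts. The list was chosen with earlier results of these data known, and what these levels have to do with the imprinted genes was not tested.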
